A study of Mus musculus with 6 samples.

Results

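Cycling intermediate urothelial cells (UCs) with few UMIs of the superficial markers Acer2 and Krt20 were examined in droplet-based single-cell RNA-seq data of the mouse bladder mucosal layer. A cell was a member if it had over 500 detected genes and at least 20 UMIs (unique molecules) of the keratins Krt5, Krt7, Krt8, Krt15, Krt18 and Krt19, more than 2 times its UMIs of Col1a1, Col1a2, Col3a1 and Dcn, and no UMI of Ptprc or Pecam1. It also needed a proliferation sum (UMIs of Top2a, Mki67, Birc5 and Ube2c) of at least 3, an Acer2 and Krt20 sum under 5, and a Krt14, Col17a1 and Dlk2 sum of at most 1. In all, 1117 of 56629 barcodes met the rule. They came from 6 libraries of wild type C57BL/6 mice aged 8 weeks, 2 libraries per condition. Healthy mice had no injury, acute mice received cyclophosphamide (CPP) and were sampled after 48 hours. Chronic mice received 4 rounds of CPP, with a time of 11 days in the labels. By the study's methods, chronic bladders were taken 48 hours after the last round, and each injection held a lower dose than in acute mice. The study describes more mice than libraries in each condition, so libraries pooled mice. P-values of condition comparisons measure the spread between pools. Those of class comparisons and interactions measure how the difference between classes varied between pools. Its methods say that the samples were processed and sequenced in batches, and since the labels do not give the batch of a library, no value within a batch could be had. The members were thus chosen by their measured UMIs of these genes, above all the proliferation genes, and those values are described without a test.

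The urothelium is a layered epithelium that lines the bladder, with basal cells on the basement membrane, intermediate cells above them and large superficial (umbrella) cells at the lumen. Umbrella cells carry uroplakin plaques, which make the surface tight to urine, while basal cells are known for Krt5, Krt14 and integrin contacts to the matrix. The urothelium turns over slowly at rest. CPP is metabolised to an alkylating mustard and to acrolein, which is excreted in urine and damages this epithelium, and surviving cells then divide to restore it. DNA alkylation activates p53, whose targets include the cyclin-dependent kinase inhibitor Cdkn1a, the pro-apoptotic gene Bax and the p53 ligase Mdm2.

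The members were unevenly spread over the libraries, with 56 and 7 cells in healthy replicates 1 and 2, 597 and 229 in acute replicates 1 and 2, and 138 and 90 in chronic replicates 1 and 2. Their summed UMIs followed the same order, from 45383 in healthy replicate 2 to 4410155 in acute replicate 1. The healthy arm therefore rested mostly on 1 library, and its second library held 7 cells. Members had more UMIs per cell than the non-cycling cells of the same gate (proliferation sum of 0 to 2), with library medians between 1.15 and 1.42 times theirs. Scrublet called between 2 and 67 members per library doublets, which was 3.57% to 28.6% of them, against 3.87% to 9.47% of the non-cycling cells. Leukocyte markers stood apart in healthy replicate 2, at 2670 per 1000000 UMIs of all genes in members against 63.9 in non-cycling cells. Of its 7 members, 2 held 119 and 89 of these UMIs. In the other 5 libraries the leukocyte list lay between 33.5 and 314 in members on the same scale, and its top 3 cells in chronic replicate 1 held 148, 88 and 57 UMIs. Without doublets, 4054 genes were called between members and non-cycling cells (3936 with them), 977 against cycling basal cells (955) and 3123 against cycling superficial-marker cells (3343). Without cells that held leukocyte markers these counts were 3959, 922 and 3277. No member shared its barcode with a member of another library.

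The label of the cells was set against the markers named with it. Krt5 and Krt15 belong to the keratins of the rule, so their levels are a description and no check of the label. Mean levels below are UPM over the libraries with at least 20 cells of a class, with SD. Krt5, a basal and intermediate keratin, stood at 647 ± 117 in the members (n = 5), at 1150 ± 138 in cycling basal cells (same gate, but a Krt14, Col17a1 and Dlk2 sum of at least 2; n = 2) and at 126 ± 21.1 in cycling superficial-marker cells (an Acer2 and Krt20 sum of at least 5; n = 4). Krt15 gave the same order, at 2300 ± 454, 4350 ± 928 and 406 ± 195. Both keratins thus lay between the neighbouring classes and close to non-cycling intermediate cells, which held 671 ± 67.8 for Krt5 and 2540 ± 499 for Krt15 (n = 6). Ugt2b34, a glucuronosyltransferase, was at 206 ± 37.0 in the members, above cycling basal (132 ± 50.7) and cycling superficial-marker cells (94.0 ± 10.6), but well below the 415 ± 87.5 of non-cycling intermediate cells. Of the markers outside the rule, Ugt2b34 was thus higher in the cells at rest than in the cycling ones. Upk3a, a uroplakin of the luminal plaque, was present at 2690 ± 962 in the members, and Acer2, which the rule limits without removing it, at 127 ± 53.8. A label of cells without superficial markers therefore went against these values, and the members were cells low in Acer2 and Krt20.

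**Figure D1:**
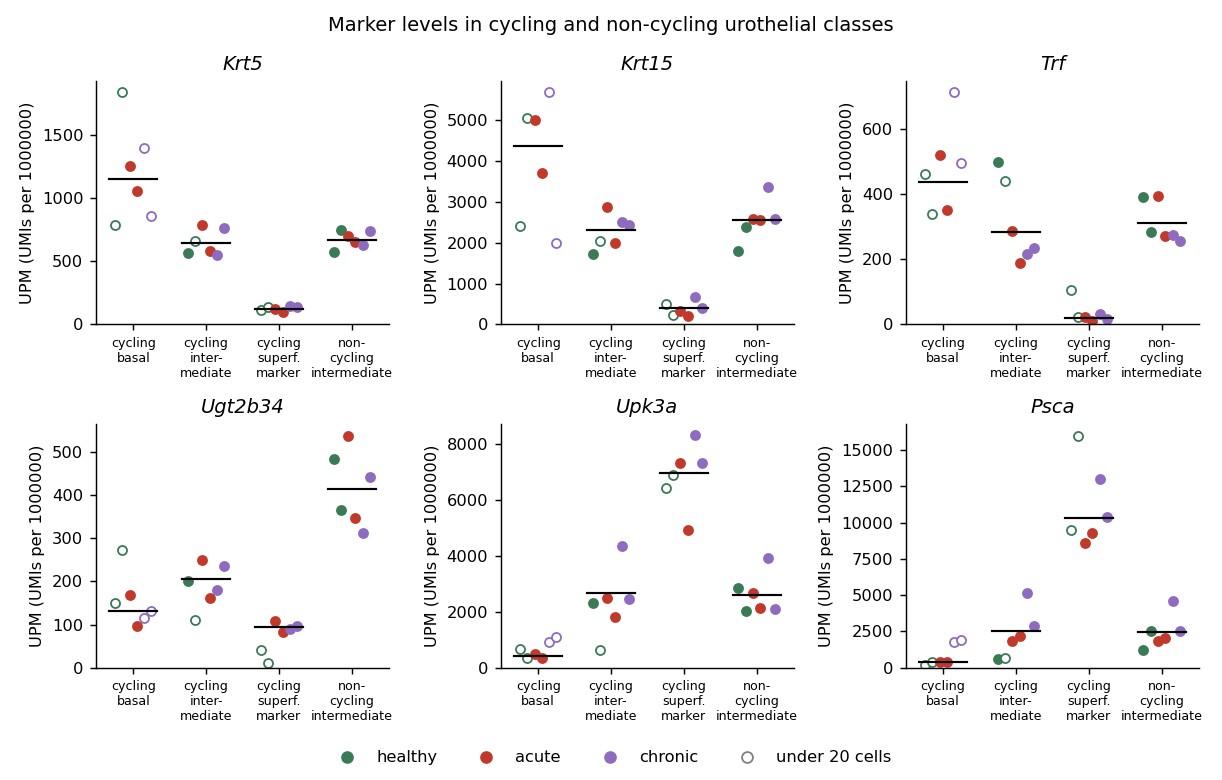
Levels (UPM, linear axis) of 6 genes in 3 cycling classes and in non-cycling intermediate cells, 1 point per library, coloured by condition, open where a class had under 20 cells; black bars are means over the libraries with at least 20 cells. The means of the members lie between those of cycling basal and cycling superficial-marker cells for Krt5, Krt15, Trf, Upk3a and Psca, while Ugt2b34 is highest in non-cycling intermediate cells.

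The thresholds of the rule cut through continuous values. Members with a proliferation sum of exactly 3 numbered 7 and 1 in the healthy, 36 and 17 in the acute and 12 and 12 in the chronic libraries, and cells just outside, with a sum of 2, numbered 15 and 2, 57 and 77, and 43 and 22 in the same order. Most members were far from this limit, with median sums of 13 and 12, 10 and 14, and 6 and 8. Cells with an Acer2 and Krt20 sum of 4 made up 1 and 0, 33 and 18, and 13 and 8 of the members, and 1 and 0, 33 and 14, and 12 and 10 cycling cells had a sum of 5. A Krt14, Col17a1 and Dlk2 sum of 1 was found in 163 of 597 members of acute replicate 1, and 75 cycling cells of that library had a sum of 2.

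The genes that define the cycling state are known to share promoter elements, so the promoters of the 4 proliferation genes of the rule are shown with that of Mcm6, a subunit of the replicative helicase. The sequences are RefSeq promoters of build GRCm38.p6, the 250 bases before each gene's start, 5′ to 3′ on the strand of the gene. Capitals mark matches on either strand to the CHR element (TTTGAA or TTCGAA), which is known from G2/M genes, to the CCAAT box, and to the E2F element (TTTGGCGC, TTTCCCGC, TTTGCCGC or TTTCGCGC). The windows lie at chr11:99024190-99024439 (minus strand), chr7:135716380-135716629 (minus strand), chr2:164769679-164769928 (plus strand), chr11:117848987-117849236 (plus strand) and chr1:128359706-128359955 (minus strand).
Top2a: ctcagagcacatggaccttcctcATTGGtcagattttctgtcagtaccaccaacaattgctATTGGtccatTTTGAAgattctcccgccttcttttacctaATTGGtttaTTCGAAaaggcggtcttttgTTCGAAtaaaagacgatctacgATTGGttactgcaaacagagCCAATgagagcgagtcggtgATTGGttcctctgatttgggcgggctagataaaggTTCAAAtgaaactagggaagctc
Mki67: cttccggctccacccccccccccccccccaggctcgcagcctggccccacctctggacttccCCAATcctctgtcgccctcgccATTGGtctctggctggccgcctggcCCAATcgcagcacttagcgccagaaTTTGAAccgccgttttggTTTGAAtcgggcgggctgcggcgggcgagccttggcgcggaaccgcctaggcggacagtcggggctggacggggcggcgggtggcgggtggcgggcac
Ube2c: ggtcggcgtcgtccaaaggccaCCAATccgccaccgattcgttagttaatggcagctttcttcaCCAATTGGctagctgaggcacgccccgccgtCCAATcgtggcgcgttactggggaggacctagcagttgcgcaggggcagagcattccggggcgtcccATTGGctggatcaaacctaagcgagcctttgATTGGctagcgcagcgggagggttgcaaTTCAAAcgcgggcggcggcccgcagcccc
Birc5: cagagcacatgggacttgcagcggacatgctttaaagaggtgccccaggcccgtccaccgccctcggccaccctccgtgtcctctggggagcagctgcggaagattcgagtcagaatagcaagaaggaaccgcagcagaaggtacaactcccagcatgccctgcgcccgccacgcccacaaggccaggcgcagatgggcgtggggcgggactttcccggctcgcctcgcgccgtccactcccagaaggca
Mcm6: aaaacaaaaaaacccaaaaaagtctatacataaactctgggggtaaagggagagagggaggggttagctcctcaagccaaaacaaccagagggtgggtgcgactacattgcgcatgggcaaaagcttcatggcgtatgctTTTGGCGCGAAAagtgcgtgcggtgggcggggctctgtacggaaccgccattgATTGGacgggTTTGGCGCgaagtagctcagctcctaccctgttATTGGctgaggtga
Top2a held 4 CHR and 6 CCAAT matches in this stretch, Mki67 2 and 3, and Ube2c 1 and 6, while Birc5 held none of the letters searched. Mcm6 held 3 E2F matches, of which a pair on opposite strands overlapped, and no CHR match. Over the full windows of 300 bases, 36 of the 46 G2/M list genes with a window (78.3%) held a CHR match, against 21.7% of all 27025 genes. In the S phase list the share was 19.4% of 31 genes. The E2F element showed the opposite split, with 38.7% of the S phase list, 6.52% of the G2/M list and 2.6% of all genes. CCAAT was found in 76.1% and 71.0% of the lists and in 41.1% of all genes. Lists were matched to promoters by symbol, and a match describes letters in a window only.

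Cycling cells were a larger share of the intermediate gate after CPP than in healthy bladders. Healthy replicate 1 had a share of 1.13% (Wilson bounds at the 95% level 0.872 and 1.46) and healthy replicate 2 of 0.113% (0.0548 and 0.233). The shares were 13.9% (12.9 and 15.0) and 4.54% (4.0 and 5.15) in the acute replicates, and 1.68% (1.43 and 1.98) and 2.32% (1.9 and 2.85) in the chronic replicates. The conditions did not overlap, with all acute libraries above all chronic ones and those above all healthy ones. The libraries within the acute and within the healthy condition differed beyond their intervals, which cover counting error only. Acute exceeded healthy by 8.61 percentage points on average (9.23 ± 6.63 against 0.622 ± 0.719, SD, n = 2 each), chronic exceeded healthy by 1.38 (2.0 ± 0.454), and acute exceeded chronic by 7.23. The exact two-sided permutation test gave p = 0.333 for each, the smallest value that 2 libraries against 2 allow, so no difference in share could pass 0.05. When the proliferation sum was counted after thinning each cell to 3000 UMIs, with the other criteria at full depth, the acute excess over healthy was 4.53 points, the chronic excess 0.641 and acute minus chronic 3.88. Without acute replicate 1 the acute excess was 3.92 points and acute minus chronic 2.54, and without acute replicate 2 they were 13.3 and 11.9. The chronic excess was 0.873 without healthy replicate 2. All of these differences were above 0.

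**Figure D2:**
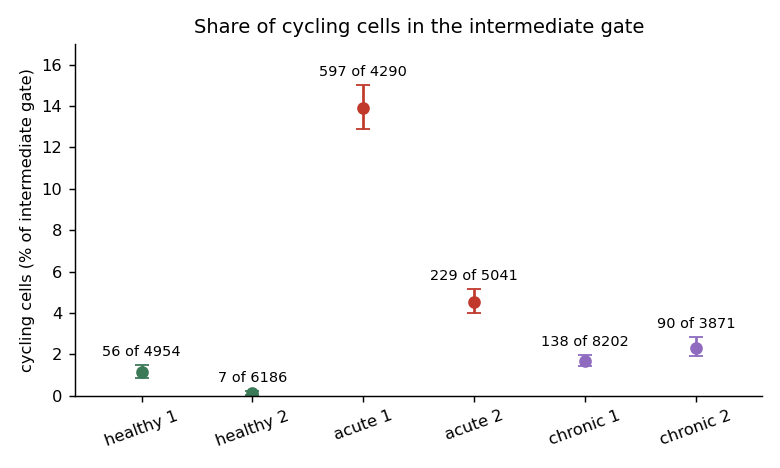
Share of cycling cells in the intermediate gate (percent, linear axis) in each library, with 95% Wilson intervals and the number of members and of all cells of the gate. The acute libraries lie at 13.9% and 4.54%, the chronic ones at 1.68% and 2.32% and the healthy ones at 1.13% and 0.113%.

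The members were not the only cells that cycled. In the basal gate the share of cycling cells was 6.91% and 0.868% in the healthy libraries, 53% and 18% in the acute ones, and 12% and 7.69% in the chronic ones. In the superficial-marker gate it was 1.39% and 1.47%, 38.8% and 18.8%, and 6.68% and 8.98%. Members nevertheless made up the largest class of cycling cells over all libraries, with 1117 cells against 272 basal and 736 superficial-marker cells. They were 41.2% to 73.7% of the cycling cells per library, counted with the few cells that were over both the basal and the superficial limit. Superficial-marker cells were deeper, with median UMIs of 13356 to 25757.5 per cell against 8159 to 13549 in the members, and the part of depth in these shares was not tested.

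Members were then compared with the non-cycling cells of the same gate and library, which asks what else differed in intermediate cells that were in cycle. UMIs were summed per library and class and fitted with edgeR's quasi-likelihood test with library as a block (6 libraries, 12096 genes, Benjamini-Hochberg adjusted p below 0.05). Of these genes, 15.6% were called higher and 17% lower in members, and 3924 of the 3936 called genes lay outside the rule. Levels and folds of class comparisons are CPM, which unlike UPM are scaled for composition within each fit, and log2 fold changes of that fit. Because the rule selects on mitotic genes, the cell cycle lists describe the choice. The 50 G2/M list genes outside the rule had a median log2 difference of 4.89, the spindle and mitotic kinases of 5.88, the kinetochore list of 4.51, the S phase list of 2.66 and the chromatin genes linked to replication of 1.98, against −0.05 for all genes. The genes of the rule stood far apart by construction, with Top2a at 285 ± 73.1 UPM in members (n = 5) and 3.25 in non-cycling cells. Among the cycle genes with the largest differences were Nusap1, a spindle protein (152.8 CPM against 1.44), cyclin A2 (Ccna2, 108.9 against 1.06) and Cdk1, the mitotic kinase (161.0 against 1.45).

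Genes outside the cell cycle lists rose as well. A gene was named here only if it rose in all 6 libraries, so that count was set by the choice. The part of the choice on mitotic genes in these rises was not tested. Several work in chromatin or DNA replication. They were 2810417H13Rik, the PCNA clamp-associated factor (log2 fold change 5.84 ± 0.18, SE), the histone gene Hist1h2ap (4.42 ± 0.15), the histone chaperone Dnajc9 (2.77 ± 0.10) and the histone acetyltransferase Hat1 (2.17 ± 0.11). The kinase Pbk rose by 6.20 ± 0.26, the long noncoding RNA Lockd, which lies next to Cdkn1b, by 5.98 ± 0.17, and the nuclear membrane protein Nrm by 3.22 ± 0.12. Lesser known genes of this set were Ccdc34 (2.70 ± 0.09) and Cmc2 (2.49 ± 0.10), a mitochondrial protein. Cox6b2, a subunit isoform of cytochrome c oxidase known from testis, had 40.6 and 88.1 UPM in healthy, 362 and 382 in acute and 294 and 298 in chronic members, against 9.28 and 12.7, 44.2 and 45.5, and 40.5 and 38.1 in non-cycling cells. It was higher in members of every library, and in both classes the healthy libraries were the lowest.

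Several genes of epithelial defence and of the cornified envelope were among the largest falls. Defb1, an epithelial defensin, fell by 2.27 on the log2 scale (SE 0.13; 28.4 ± 8.86 against 123.4 ± 22.3 CPM, SD, n = 6), Tff1, a mucosal trefoil peptide, fell by 1.88 and the cornified envelope precursor Ivl fell by 1.47 (376.1 ± 37.9 against 1048 ± 121). Each of these 3 genes was lower in 6 of 6 libraries, as the naming of the largest falls required. Of the 10 Sprr and cornified envelope genes tested, 6 were lower and 0 higher, Sprr2f with a drop of 1.70 among them. Other large falls were Pttg1ip (−1.65 ± 0.10), a partner of securin, the monooxygenases Fmo5 (−1.26 ± 0.13) and Cyp4f15 (−1.53 ± 0.13) and the ion transporter Slc12a7 (−1.38 ± 0.12). The 10 largest falls also held 9530034E10Rik (−1.25) and Tc2n (−1.24).

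The uroplakins split. Upk1a (−0.57 ± 0.14), Upk1b (−0.63 ± 0.11) and Upk3b (−0.67 ± 0.12) were lower in members, Upk3bl, a uroplakin-like gene, was higher (1.16 ± 0.17), and the other 2 of 6 did not pass. Of 14 superficial markers outside the rule, 7 were lower and 0 higher, with a median of −0.37. Cell junction genes moved the same way, with 12 of 19 lower and 2 higher. Among 23 transcription factors of urothelial differentiation, 8 were lower, including Elf3 (−0.74 ± 0.10), Grhl3 (−0.68 ± 0.11), Foxa1 (−0.34 ± 0.10), Gata3 (−0.31 ± 0.10) and Pparg (−0.37 ± 0.11), and 1 was higher. Foxa1 and Pparg were lower in 6 of 6 libraries in CPM, but in 5 and 4 of 6 in UPM. The higher one was Klf4 (0.57 ± 0.11), an epithelial factor known to restrain the cell cycle, with 769 and 529 UPM in healthy, 632 and 322 in acute and 237 and 409 in chronic members, and 315 and 295, 457 and 225, and 182 and 243 in non-cycling cells. Members exceeded non-cycling cells for Klf4 in every library, and the healthy libraries were among the higher ones.

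Of 24 p53 targets, 19 were higher in members and 0 lower, with a median of 0.80. In CPM of this fit, Cdkn1a (1.28) was higher in members of 5 of 6 libraries, and Ccng1 (1.18) and Bax (0.60) in 4 of 6 each, while in UPM they were higher in 6, 6 and 5 libraries. In the healthy libraries Ccng1 was at 90.7 and 110 UPM in members against 90.0 and 109 in non-cycling cells. Bax was at 148 and 154 there against 142 and 157, so these were near ties. Basal markers did not move as 1 group, with 4 of 15 higher and 3 lower. Ly6a (Sca-1) was higher in all 6 libraries (1.21 ± 0.11; 470.4 ± 165 against 218.1 ± 121 CPM), as was the hemidesmosome integrin Itgb4 (0.59 ± 0.10). Shh, the hedgehog ligand of basal urothelium, was lower in all 6 (−0.94 ± 0.11), and Trp63, the basal transcription factor, did not pass (−0.15 ± 0.10, adjusted p = 0.26). Egfr passed (0.71 ± 0.17) but was higher in members of 3 of 6 libraries only. Ugt2b34, described above, fell by 1.16 (SE 0.10), and within the detoxification list 5 of 21 genes were higher and 6 lower. The growth factor receptor Fgfr3 was lower too (−0.46 ± 0.13). Of 21 immediate-early genes, 1 was higher and 5 were lower, with a median of 0.00. Without the library block 1689 genes were called in place of 3936.

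**Figure D3:**
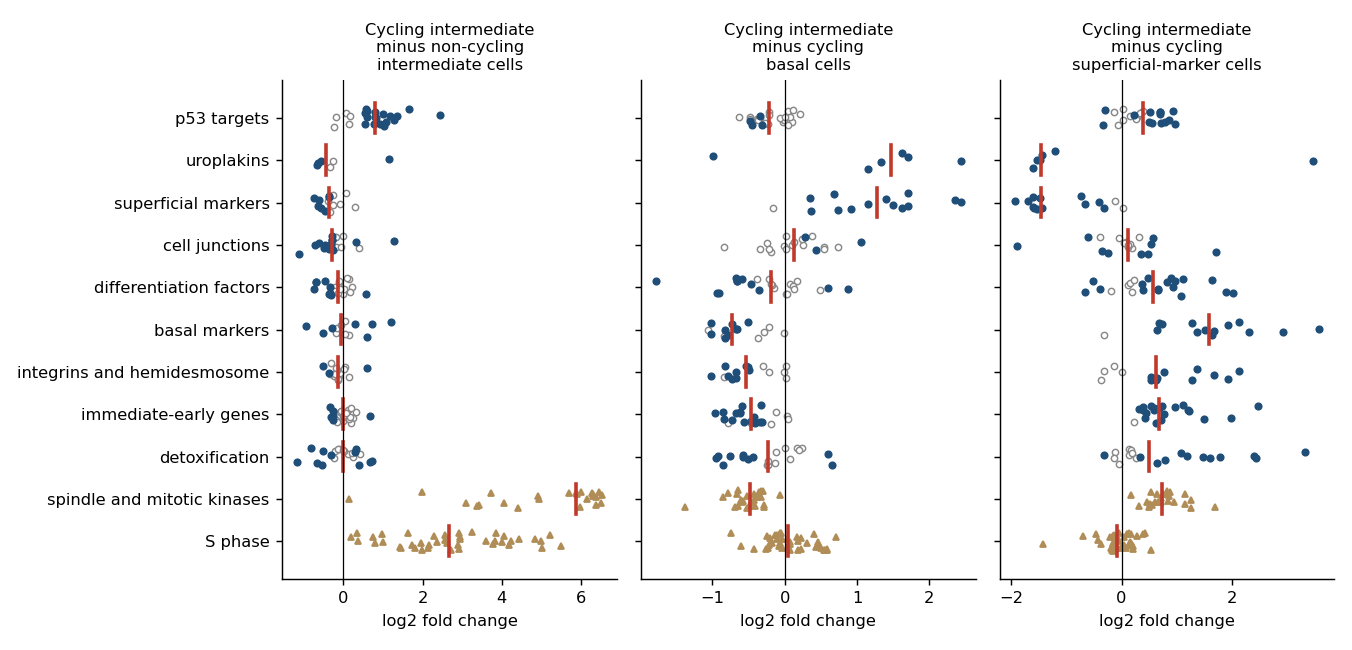
Log2 fold change of single genes (points) in 11 lists for members against non-cycling intermediate cells, cycling basal cells and cycling superficial-marker cells, genes of the rule left out; filled points have an adjusted p below 0.05, open ones do not, triangles are cell cycle genes, shown without a test in each panel, and red bars are medians. Superficial markers have medians of −0.37, 1.28 and −1.46 in the 3 panels, and p53 targets 0.80, −0.22 and 0.39.

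Against cycling basal cells the members were richer in superficial genes and poorer in basal ones. The 2 classes were split on Krt14, Col17a1 and Dlk2, so markers that go with these genes can follow the split. That part was not tested. This comparison could use the acute libraries alone, the only ones with 20 cells in both classes, and left 1 residual degree of freedom, so its p-values rest on a spread borrowed across genes. Of 9607 genes, 9.94% were called, 5.38% higher and 4.56% lower. DESeq2 called 146 genes in place of 955, and the fit without the library block called 7. Of the 955, 945 lay outside the rule. Of 14 superficial markers 13 were higher (median 1.28, against 0.00 for all genes) and 5 of 6 uroplakins were higher, with Upk3a at 2193 ± 375 CPM in members and 403.5 ± 89.1 in basal cells (SD, n = 2), a log2 difference of 2.43. The stem cell antigen Psca (2.36), Sprr2a3 (2.35) and Fam25c (2.42) differed as much, and Uchl1 (1.89), Snx31 (1.71) and Upk2 (1.71) followed. Basal markers were lower in 9 of 15 cases, and 0 were higher. Among the named ones were Ly6a (−1.02), the matricellular protein Thbs1 (−0.83), transferrin (Trf, −0.83), the laminin receptor Itga6 (−0.78) and Trp63 (−0.65).

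Immediate-early genes were lower in 15 of 21 cases, with Fos at 1156 ± 174 against 1757 ± 155 CPM, and with Jun (−0.58 ± 0.09) and Egr1 (−0.57 ± 0.10) close to it. Wnt10a, a Wnt ligand, had the largest fall of the named genes (−1.47 ± 0.22), and Ptgs2 (−1.24 ± 0.19), a prostaglandin synthase, was lower in both libraries. All cycling classes were chosen on the same sum of mitotic genes, so cell cycle genes are again given as a description. The 25 spindle and mitotic kinase genes had a median of −0.48, with the anaphase activator Cdc20 at 99.0 against 248.7 CPM, and the S phase list had a median of 0.04.

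Against cycling superficial-marker cells, the members lay on the basal side. These classes were split on Acer2 and Krt20, so markers that go with these genes can follow the split, and that part was not tested. The comparison used 4 libraries (2 acute, 2 chronic), and of 9288 genes 18.8% were called higher and 17.2% lower. DESeq2 called 1774 genes against 3343. Of the 3343, 3331 lay outside the rule. Basal markers were higher in 13 of 14 cases, with a median of 1.58 against 0.01 for all genes. Trf, the iron carrier, was at 228.8 ± 34.5 CPM in members and 21.7 ± 8.94 in superficial-marker cells (SD, n = 4; log2 fold change 3.59 ± 0.14, SE). Ly6a (2.92 ± 0.17), Thbs1 (2.31 ± 0.12), Itga6 (1.67 ± 0.13) and Trp63 (1.65 ± 0.11) were higher in all 4 libraries. Superficial markers were lower in 12 of 14 cases, led by Psca (−1.94 ± 0.11), Clu (−1.58 ± 0.12), Upk1a (−1.49 ± 0.10) and Upk3a (−1.44 ± 0.10). Hopx (−1.97 ± 0.12), a homeodomain protein, and the claudin Cldn8 (−1.90 ± 0.12) fell as far.

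Other groups also separated these classes. Immediate-early genes were higher in members in 20 of 21 cases, with the AP-1 subunit Fosl1 at 2.48 ± 0.17, and 14 of 22 differentiation factors were higher, among them Klf4 (2.03 ± 0.10) and the inhibitor of differentiation Id3 (1.90 ± 0.13). Detoxification genes were higher in 11 of 20 cases. Aldh3a1, an aldehyde dehydrogenase, was at 451.3 ± 168 CPM against 94.8 ± 68.8 (2.45 ± 0.12), and Ugt2b34 differed by 1.08 ± 0.10. Il33, an alarmin of epithelial cells (2.32 ± 0.14), the peptide hormone Adm (2.43 ± 0.16), Gpnmb (2.45 ± 0.15), Tpm2 (2.24 ± 0.13) and Rgs10 (2.20 ± 0.13) completed the largest rises. Of 23 p53 targets 12 were higher and 2 lower, with Cdkn1a at 1477 ± 214 against 856.8 ± 128 CPM.

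The balance of mitotic and S phase transcripts was higher in the members than in cycling superficial-marker cells, and its difference from cycling basal cells did not pass. All 3 classes were chosen on the same mitotic sum. Superficial-marker cells had more UMIs per cell, as given above, so the same sum was a laxer cut in them. The part of depth in the difference was not tested. The superficial-marker class held 6 cells in each healthy library. The balance was measured as log2 of the summed UMIs of the G2/M list over those of the S list, without the proliferation genes of the rule. Members had ratios of 2.53 and 2.69 in the healthy, 1.77 and 2.07 in the acute and 1.69 and 1.46 in the chronic libraries. The healthy libraries were the highest and the conditions did not overlap between healthy and either CPP group. The mean was 0.535 above cycling superficial-marker cells, with members higher in 6 of 6 libraries (SD of the difference 0.281, exact paired permutation test, two-sided, p = 0.0312, the smallest value 6 pairs allow). Without the members with leukocyte markers the difference was 0.62, with p = 0.0625 in the same exact test, and with the mitosis lists over the replication fork list it was 0.38, with p = 0.0625. The mean was 0.394 below cycling basal cells, in 5 of 6 libraries (SD 0.419, p = 0.0938, exact paired permutation test). With members and basal cells that had a proliferation sum of at least 5, the difference was −0.34 and p = 0.0312 in the same exact test. Between conditions, the acute mean was 0.693 and the chronic mean 1.039 below the healthy one, with p = 0.333 in exact permutation tests, the smallest value possible. Thinned to 3000 UMIs, the differences from healthy were −1.48 in acute and −1.78 in chronic members.

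**Figure D4:**
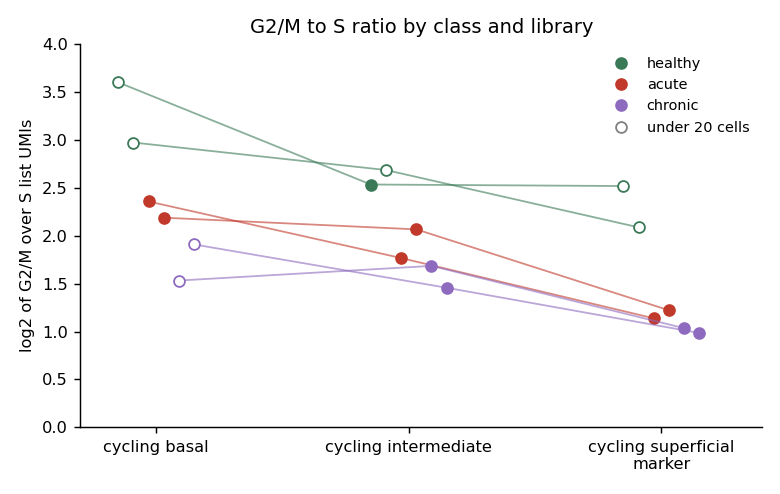
Log2 ratio of G2/M list over S list UMIs in 3 cycling classes, 1 line per library coloured by condition, open points for classes of under 20 cells. Members lie above the superficial-marker cells in 6 of 6 libraries and below the basal cells in 5 of 6.

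A few p53 targets were higher in the cycling cells after CPP, in calls that rested on both healthy libraries. Cdkn1a had 511 and 375 UPM in members of healthy replicates 1 and 2, 1820 and 1280 in the acute and 1530 and 1350 in the chronic replicates. Ccng1, a cyclin induced by p53, had 90.7 and 110 in healthy, 749 and 450 in acute and 466 and 488 in chronic members. Bax had 148 and 154, 541 and 439, and 352 and 401. For all 3 genes the healthy libraries lay below every CPP library, and the acute and chronic libraries lay near each other. Across 8108 genes in 1 edgeR fit of the 6 sums, 0.234% were called in acute against healthy members (0.197% higher and 0.037% lower), and 0.16% higher and 0 lower in chronic members. Ccng1 rose by 2.74 ± 0.35 (log2, SE; adjusted p = 0.0036) in acute and by 2.43 ± 0.35 (adjusted p = 0.0073) in chronic members by edgeR. Cdkn1a rose by 1.84 ± 0.31 (adjusted p = 0.027) and by 1.76 ± 0.31 (adjusted p = 0.037). Bax passed in acute (1.80 ± 0.30, adjusted p = 0.026) and missed in chronic members (1.43 ± 0.30, adjusted p = 0.08).

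Of the 22 p53 targets tested, 3 passed in acute and 2 in chronic members, and 0 passed in the other direction. Of the same 22 genes, 21 had a fold change above 0 in each comparison, with medians of 1.67 in acute and 1.38 in chronic members against 0.04 and 0.05 for all genes. Mdm2, at 45.4 and 0 UPM in healthy, 208 and 96.6 in acute and 123 and 211 in chronic members, did not pass (2.04 ± 0.55, adjusted p = 0.26 in acute). Both comparisons use the same healthy members, so they are not independent of each other. Without healthy replicate 1, and likewise without healthy replicate 2, Cdkn1a, Ccng1 and Bax missed the threshold in both comparisons (edgeR adjusted p of 0.12 to 0.46). Without the members with leukocyte markers, Cdkn1a had an adjusted p of 0.043 in acute and of 0.056 in chronic members by edgeR, and Ccng1 passed in both.

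Non-cycling cells of the same gate had smaller differences in these genes. Cdkn1a was at 282 and 280 UPM in healthy, 591 and 324 in acute and 598 and 496 in chronic non-cycling cells, and Ccng1 at 90.0 and 109, 248 and 121, and 181 and 226. In healthy libraries, Ccng1 and Bax were thus at about the same level in members and in non-cycling cells, while after CPP the members were higher in every library. In non-cycling cells edgeR called 0 of 13631 genes (0%) in acute and 0 (0%) in chronic against healthy, with 373 and 657 genes at an unadjusted p under 0.05, and DESeq2 called 19 and 62. The median over p53 targets was 0.33 in acute and 0.51 in chronic non-cycling cells. The difference between the classes was tested as an interaction over the 12 sums and 13188 genes, where 1.13% were called for the acute effect (0.463% higher, 0.667% lower) and 0.72% for the chronic one (0.182% higher, 0.538% lower). Of the 149 and 95 called genes, 145 and 91 lay outside the rule. The acute effect was larger in members for Ccng1 by 1.85 ± 0.30, Mdm2 by 1.82 ± 0.35, Cdkn1a by 1.19 ± 0.27 and Bax by 1.06 ± 0.28, with adjusted p-values of 4.4e-07, 7.7e-05, 0.0016 and 0.017 by edgeR. The chronic effect was larger for Ccng1 (1.27 ± 0.31, adjusted p = 0.0094) and Mdm2 (1.73 ± 0.37, adjusted p = 0.00077), and missed for Cdkn1a (0.72 ± 0.27, adjusted p = 0.28) and Bax (0.68 ± 0.28, adjusted p = 0.42). Cell cycle genes are given as a description here too, since the rule bounds their level in both classes. The 50 G2/M genes outside the rule had a median interaction of −1.17 in acute and −1.10 in chronic, against 0.13 and 0.04 for all genes. Their median was −0.42 in acute and −0.69 in chronic members against healthy, and 0.53 and 0.26 in non-cycling cells. The part of this shift in the p53 target differences was not tested. With 1 library left out, the acute difference of Ccng1 passed each time, that of Mdm2 passed without each library other than healthy replicate 1, where the remaining healthy members held 0 UMIs of Mdm2 and no fold is given for either effect, that of Cdkn1a was 1.80 without healthy replicate 1 and was lost without acute replicate 2 (adjusted p = 0.13, edgeR), and that of Bax was lost without healthy replicate 1, acute replicate 1 or either chronic library (adjusted p of 0.091 to 0.19). The chronic difference of Ccng1 was lost without healthy replicate 1 or either chronic library (adjusted p of 0.14 to 0.35), and that of Mdm2 without chronic replicate 2 (adjusted p = 0.085). After every cell was thinned to 3000 UMIs, none of these 6 differences passed.

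**Figure D5:**
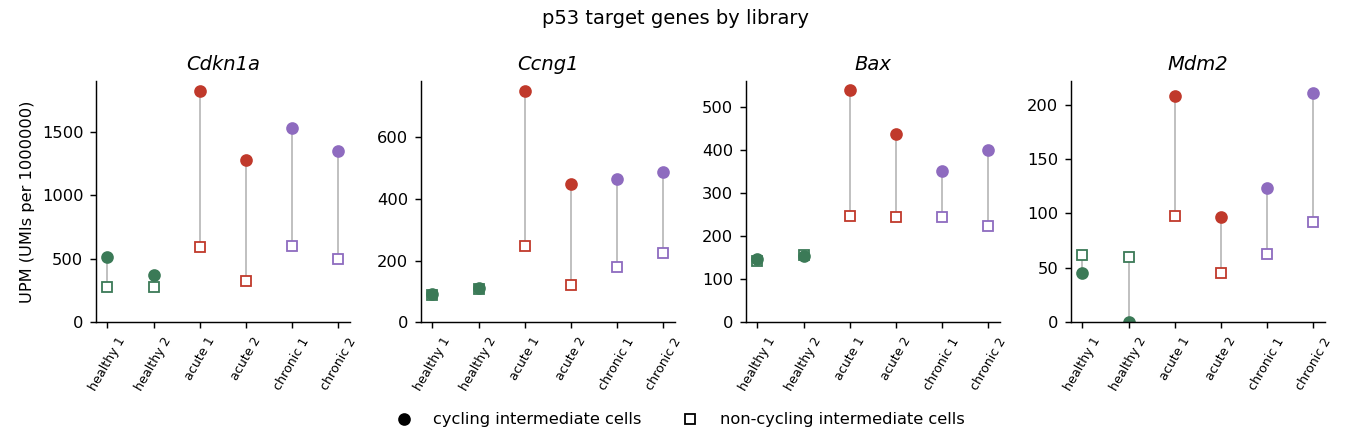
Levels (UPM, linear axis) of 4 p53 target genes in members (filled circles) and non-cycling intermediate cells (open squares) of each library, coloured by condition, with a grey line joining the 2 classes of a library. Members exceed non-cycling cells in all 4 CPP libraries, while in the healthy libraries Ccng1 and Bax nearly coincide.

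Other genes rose in the members of both CPP conditions. Mgmt, which removes alkyl groups from guanine in DNA, had 7.16 and 0 UPM in healthy, 145 and 131 in acute and 126 and 113 in chronic members, and all CPP libraries lay far above the healthy ones. It passed in acute and in chronic members (adjusted p = 0.0032 and 0.0041, edgeR). Healthy members held 3 UMIs of Mgmt, so its ratio was loose, at 21.8 in acute (exact 95% counting interval 7.42 to 106) and 18.6 in chronic members (6.26 to 91.2). Mgmt was also at 11.5 and 13.1 in healthy, 42.7 and 32.5 in acute and 59.9 and 48.3 in chronic non-cycling cells. Cox6b2 rose by 3.02 ± 0.37 and 2.70 ± 0.38, the phosphatase Ptp4a3 by 2.27 ± 0.31 and 2.05 ± 0.32, and the carbonyl reductase Dcxr by 2.25 ± 0.32 and 2.37 ± 0.33. Sncg, a synuclein, held 1 UMI in healthy members, with ratios of 42.7 (7.64 to 1690) in acute and 37.5 (6.59 to 1490) in chronic members. Atg9b, an autophagy protein, held 2 UMIs, with ratios of 27.9 (7.69 to 231) and 23.3 (6.34 to 195), and both genes passed in both comparisons. Ak1, an adenylate kinase, had 0 UMIs in healthy members against 524 and 194 in acute and 69 and 70 in chronic members. With 3 UMIs over both healthy libraries as the floor (6.46 UPM), Ak1 was at least 17.2-fold higher in acute and 16.0-fold higher in chronic members. On the same floor Wdr72 was at least 7.04-fold and 7.62-fold higher, and Ddit4l, called in acute members, at least 10.2-fold higher. In non-cycling cells, too, the healthy libraries lay below every CPP library for Ak1, Atg9b, Sncg, Dcxr and Ptp4a3. Dcxr was at 125 and 152 UPM there in healthy, 205 and 206 in acute and 300 and 246 in chronic libraries. Wdr72 did not separate there, at 14.3 in healthy replicate 2 and in acute replicate 2.

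Notch1, the receptor, rose in acute members (158 and 88.1 against 687 and 480 UPM; 2.13 ± 0.37, adjusted p = 0.029, edgeR) and not past the threshold in chronic ones (314 and 547; 1.70 ± 0.38, adjusted p = 0.1). Commd3 (1.81 ± 0.32) and 9530053A07Rik completed the rises of acute members. The latter held 2 UMIs in healthy members, with a ratio of 17.2 (4.73 to 142). The 3 falls were Cd52, a leukocyte antigen (31.0 and 308 against 2.27 and 3.72 UPM), the interferon-induced chemokine Cxcl10 (90.7 and 66.1 against 15.6 and 5.84) and the haemoglobin gene Hbb-bs (33.4 and 22 against 1.13 and 1.06). Cd52 was high in healthy replicate 2, the library in which 2 members carried leukocyte UMIs, and Hbb-bs was higher still in healthy non-cycling cells, at 255 and 189. Once members with leukocyte markers were left out, Cxcl10 had an adjusted p of 0.077 by edgeR, and Cd52 and Hbb-bs were too low to be tested.

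The superficial marker Psca, the cornified envelope gene Sprr2a3 and Fam25c rose in chronic members. Psca, the one superficial marker called, had 583 and 661 UPM in healthy, 1840 and 2170 in acute and 5160 and 2910 in chronic members, so the 3 conditions did not overlap. It rose by 1.84 ± 0.35 (adjusted p = 0.047) in acute and by 2.86 ± 0.36 (adjusted p = 0.0032) in chronic members by edgeR. Fam25c (2.90 ± 0.35) and Sprr2a3 (2.77 ± 0.36) rose in chronic members, and in acute members both had an adjusted p of 0.051. After thinning to 3000 UMIs the acute differences were −0.085 for Fam25c and −0.431 for Sprr2a3, of the opposite sign. Of the 14 superficial markers, 14 in acute and 13 in chronic members had a fold change above 0, with medians of 0.31 and 0.93. The medians of all genes were 0.04 and 0.05. In non-cycling cells Psca had 1190 and 2530 in healthy, 1820 and 2060 in acute and 4570 and 2540 in chronic libraries, so healthy members lay below non-cycling cells and CPP members beside them. After the members with leukocyte markers were left out, Psca passed in chronic members and missed in acute members.

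The 2 CPP conditions could not be told apart gene by gene in the members. EdgeR called 0 of 8108 genes (0%) between acute and chronic, with 391 at an unadjusted p under 0.05 and a smallest adjusted p of 0.98, and DESeq2 called 0. Among genes with a mean of at least 50 CPM and separate conditions, the 5 with the smallest p did not pass. Ppargc1a, a mitochondrial coactivator, had 111 and 186 UPM in acute and 36.7 and 38.3 in chronic members, and the retinol and alcohol dehydrogenase Adh1 had 140 and 175 against 597 and 280. Tmem176b, Gm20186 and Gm6133 had log2 differences of 1.28, 1.62 and −1.98. For each of these genes the conditions were separate, as the choice required. The count of called genes depended on single libraries.

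Both counts against healthy depended on the healthy libraries. Without healthy replicate 1, the acute comparison called 0 genes higher and 15 lower, with leukocyte genes such as Cd52 and C1qa among the latter, and the chronic one 0 and 3. Without healthy replicate 2 the acute comparison kept Ak1, Cox6b2 and Mgmt, and the chronic one called 0 genes by edgeR, with 1018 at an unadjusted p under 0.05. Without acute replicate 1 or 2, the acute comparison called 107 and 65 genes and the chronic one 97 and 99. In each of these fits the lone library of a condition was assumed to vary like the other groups. The fold changes of Cdkn1a, Ccng1 and Bax were above 0 in each of these fits.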

How the data were processed

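Droplet-based 3′ single-cell RNA-seq libraries of mouse bladder mucosa were analysed, 2 each from healthy, acute CPP and chronic CPP mice. The deposited files hold raw UMI counts per gene and cell barcode, which per the labels the authors made with Cell Ranger on build mm10; these deposited counts are not normalised. The files held 5348 to 15062 barcodes and 54604109 to 111985678 UMIs per library. The last line of the healthy replicate 1 file was incomplete and was left out. Genes present in all 6 files were used (14450), and 103 mitochondrial and ribosomal protein genes were left out of the tests, which left 14347. Each library file was used in full, with no cell type annotation, and all classes were built from the UMI sums stated in the report.

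UMIs were summed per library and class. A class comparison used the libraries with at least 20 cells of both classes, except that members and non-cycling cells were compared in all 6. Sums were tested with edgeR 4.0.16 (TMM scaling, filterByExpr, quasi-likelihood test, Benjamini-Hochberg adjusted p below 0.05, two-sided), with library as a block between classes. Condition comparisons shared 1 fit over 6 sums. UPM are UMIs per 1000000 UMIs of a library and class over these 14347 genes, and CPM are scaled within a fit. The leukocyte list alone was given per 1000000 UMIs of all genes. Shares and ratios were tested with exact permutation tests in scipy 1.17.1. Doublets were called with Scrublet in scanpy 1.11.5 at a rate of 0.8% per 1000 cells and kept in the main analysis. The edgeR code was tested on simulated data with 200 changed genes. These were drawn from genes with a mean of at least 50 CPM, so the recovery given here does not cover lower genes. In the simulated acute comparison (7677 genes), 16% of 2-fold and 86% of 4-fold changes were recovered, so smaller changes could be missed in the condition comparisons.

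Alternatives were DESeq2 1.42.0, RLE scaling, no low-count filter, a replicate or library block, other cell thresholds, doublet removal, thinning to 3000 UMIs, and leaving out each library. Chosen after seeing the data were the removal of cells with at least 3 leukocyte UMIs and the proliferation sum counted at 3000 UMIs. So were other minimum numbers of cells per class and the condition comparisons of non-cycling cells. In the interaction, non-cycling cells with a sum of 0 and the leaving out of libraries were also chosen then. Named genes were those the study names for urothelial subsets, up to 10 rises and falls per comparison with a mean of at least 50 CPM and 1 direction in every library or non-overlapping conditions, and the 4 most abundant and the called genes of each of 32 lists; a selection of these is described. Commd3 and the genes at 0 in healthy members were named because they passed. The members and lists were chosen with earlier results of these data known. One gene that the rule names is not reported here.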

Additional observations from a re-analysis of the deposited data

Results flagged for a closer look

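The effect of CPP differed between members and non-cycling intermediate cells in a test of the difference itself (edgeR interaction over 12 sums, log2 scale) for the following named genes. The acute effect was larger in members for Ccng1 (1.845, SE 0.298, adjusted p = 4.4e-07), Mdm2 (1.816, adjusted p = 7.7e-05), Cdkn1a (1.188, adjusted p = 0.0016) and Bax (1.055, adjusted p = 0.017), which are p53 targets. It was also larger for Notch1 (1.686, adjusted p = 4.6e-07), Dcxr (1.624, adjusted p = 1.4e-05) and Psca (1.55, adjusted p = 7.6e-05). Each of the 8 genes named for the acute effect, C1qa below included, missed the threshold in at least 1 alternative. After thinning to 3000 UMIs, edgeR called 4 genes with a larger and 4 with a smaller acute effect in members.

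The chronic effect was larger in members for Ccng1 (1.267, adjusted p = 0.0094, edgeR), Mdm2 (1.732, adjusted p = 0.00077), Notch1 (1.287, adjusted p = 0.0017), Psca (1.624, adjusted p = 3.9e-05), Dcxr (1.256, adjusted p = 0.0079) and Fam25c (1.93, adjusted p = 3.3e-08). Both effects share the healthy libraries. After thinning to 3000 UMIs, edgeR called 0 genes with a larger chronic effect in members, so all of these chronic calls were lost.

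The complement gene C1qa of macrophages had the opposite sign (−3.642, adjusted p = 3.1e-08 in acute, and −3.447, adjusted p = 6.3e-06 in chronic, edgeR), with 463 UPM in members of healthy replicate 2 and 2.04 to 11.6 in those of the other libraries.

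Some of these differences depended on 1 library. Without healthy replicate 1, the difference was 3.06 in acute and 2.659 in chronic for Notch1, and 2.402 and 2.473 for Psca. Without healthy replicate 2, C1qa was at −0.384 in acute and −0.193 in chronic, and neither passed. In chronic, Notch1 (adjusted p = 0.07 and 0.22), Psca (0.051 and 0.14) and Dcxr (0.1 and 0.33) were lost by edgeR without chronic replicate 1 and 2, and Dcxr also without healthy replicate 1 (0.23). The losses of Cdkn1a, Bax, Ccng1 and Mdm2 are given in the report. In none of these fits did a named difference change sign.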

How the results depend on the processing

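After thinning to 3000 UMIs, edgeR called 0 genes in acute and 0 in chronic against healthy (148 and 159 of 1828 at an unadjusted p under 0.05), 21 genes against basal cells, and 8 and 1 in the acute and chronic interactions. Thinned, Fam25c (−0.085) and Sprr2a3 (−0.431) changed sign in acute members, and the cause was not tested. Thinning kept 1828 genes in the test in place of 8108.

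The count against healthy (19 acute, 13 chronic) was 113 and 146 without the low-count filter, 36 in acute with only the 2 conditions in the fit, and 25 in chronic with DESeq2. It ranged from 3 to 107 in acute and from 0 to 99 in chronic with 1 library left out, and acute against chronic from 0 to 81. Without the filter, acute against chronic gave 60. Cycling against non-cycling gave 1689 without the library block and 2588 to 4120 with 1 library left out. Against basal cells DESeq2 gave 146, no library block 7 and a proliferation sum of at least 5 gave 466; leaving out a library could not be fitted there. Against superficial-marker cells DESeq2 gave 1774, no library block 1049, and 1914 to 3621 with 1 library left out. The interaction gave 52 and 48 with DESeq2, 96 in acute without leukocyte-marker cells, and with 1 library left out 89 to 143 in acute and 39 to 134 in chronic.

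The chronic excess in share was 0.641 points with the proliferation sum counted at 3000 UMIs. The G2/M to S ratio against basal cells was −0.34 at a proliferation sum of at least 5, the only alternative that passed there. Against superficial-marker cells it was 0.77 thinned (3 libraries), 0.38 with mitosis over replication fork lists, 0.62 without leukocyte-marker cells, 0.65 in the libraries with at least 20 cells, and 0.47 to 0.64 with 1 library left out, and each of these missed the threshold; 5 or fewer libraries cannot reach it. Against healthy it was −1.48 thinned in acute, and in chronic −1.78 thinned, −1.23 without doublets, −0.86 with the other lists and −1.22 without leukocyte-marker cells.

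Libraries with the same replicate number did not deviate alike in every pair of conditions. Their deviations correlated at 0.15 (healthy and acute), −0.19 (healthy and chronic) and −0.17 (acute and chronic) in members. In non-cycling cells the values were 0.41, −0.47 and −0.36 in the same order. There, same-numbered healthy and acute libraries tended to deviate alike, and chronic ones the opposite way. A block that joins chronic libraries to the other replicate number was not fitted, and the part of such a grouping in the results was not tested. The labels do not tie the numbers to batches. With the replicate block, 22 genes were called in acute (18 shared), 14 in chronic (13 shared) and 0 between acute and chronic.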
